A study of Mus musculus with 24 samples.

Results

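Prl2c2 and Prl2c3 are genes of a cluster on mouse chromosome 13 that encode proliferin, a secreted hormone of the prolactin family, and their messenger RNAs are nearly identical. Both were followed here across 24 bulk RNA sequencing (RNA-seq) libraries of optically stimulated mouse muscle. They are 2 of the 56941 genes in the deposited tables and were picked by name, Prl2c2 for its rise at 10 Hz and Prl2c3 as the copy that shares its reads. The 10 Hz values of both genes, and of their sum, are therefore a description and carry no test. All 4 genes named Prl2c in the tables (Prl2c1, Prl2c2, Prl2c3, and Prl2c5) were examined singly and as 1 sum.

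The tissues were 2D muscle sheets of C2C12, an established line of mouse myoblasts, the muscle precursors that fuse into fibers, differentiated for about 2 weeks on fibrin hydrogels in medium with inactivated horse serum and insulin-like growth factor 1 (IGF-1). In every group, control included, the cells carried ChR2::tdTomato, a light-gated ion channel joined to a red fluorescent protein, so that a light pulse made the fibers contract. The 4 groups were unstimulated control and daily stimulation for 30 min at 1, 4, or 10 Hz, each with 6 libraries from separate cultures. Total estimated counts ranged from 4.09 to 15.2 M (mega) per library. All tissues came from 1 engineered cell line, which limits the groups to that line.

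Proliferin is best known as a product of the trophoblast giant cells of the placenta, where it promotes the growth of blood vessels. It was also described as a growth factor-inducible protein of cultured fibroblasts, it binds the mannose 6-phosphate/IGF-2 receptor (Igf2r), and it has been reported to oppose the differentiation of myoblasts. Its gene carries a promoter element at which AP-1, the dimer of Fos and Jun proteins, and the glucocorticoid receptor (Nr3c1) act, and in trophoblast cells the factors Gata2 and Gata3 act on it.

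In the annotation of build GRCm39, Prl2c2 (ENSMUSG00000079092) lies at chr13:13170710-13179968 and Prl2c3 (ENSMUSG00000056457) at chr13:12805705-12814968, both on the minus strand. Prl2c5 (ENSMUSG00000055360) lies at chr13:13357298-13366508 and Prl2c1 (ENSMUSG00000062551) at chr13:28033325-28041771, both on the plus strand. Each gene was annotated with 5 exons. The coding sequences of Prl2c2 and Prl2c3 were both 672 bases long and were 99.6% identical, with 3 single-base differences and a longest identical run of 353 bases. Prl2c5 had a coding sequence of 666 bases that was 96.1% identical to that of Prl2c2 and 96.0% identical to that of Prl2c3.

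The 3 stretches that hold the coding differences are shown because they are the positions in the coding sequence at which a read can be given to 1 copy or the other. Positions are counted from 1 at the first base of the start codon, and the capital marks the base that differs between Prl2c2 and Prl2c3. T14C lies in exon 1, C200A in exon 2, and T319G in exon 4, each written with the base of Prl2c2 in front and that of Prl2c3 behind. The stretches come from the GRCm39 genome, on the minus strand, at chr13:13179881-13179911, chr13:13176719-13176746, and chr13:13172029-13172052 for Prl2c2, and at chr13:12814871-12814901, chr13:12811720-12811747, and chr13:12807040-12807063 for Prl2c3.
Prl2c2, exon 1: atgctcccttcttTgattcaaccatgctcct
Prl2c3, exon 1: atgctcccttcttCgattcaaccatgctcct
Prl2c2, exon 2: agaagtttcagaactgttcaCtgaattt
Prl2c3, exon 2: agaagtttcagaactgttcaAtgaattt
Prl2c2, exon 4: tatTcagctcttctgaaatcagga
Prl2c3, exon 4: tatGcagctcttctgaaatcagga
Over the whole transcripts, of 842 bases for Prl2c2 and 857 for Prl2c3, identity was 97.8%. Sequencing used paired 50-base reads, and of the 793 windows of 50 bases in the Prl2c2 transcript, 83 (10.5%) occurred in no other gene. For Prl2c3 this held for 173 of 808 windows (21.4%), and 80.1% of the Prl2c2 windows also occurred in Prl2c3. Prl2c5, with 61.5% of its windows in no other gene, and Prl2c1, with 72.0%, were easier to tell apart. The pseudogene Gm7040, which shares windows with all 4 genes, had at most 2.71 estimated counts in a library. A single 50-base read from most of either transcript could thus come from both, and the split of counts between them was an estimate of Salmon, the authors' counting tool, which divides shared reads by a likelihood model. The sum of the Prl2c genes does not depend on that split.

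The promoter of Prl2c3 is shown for matches to loose AP-1 letters and to GATA letters, beside that of Prl2c5 for comparison. Both are the 250 bases before the gene start from RefSeq on build GRCm38.p6, at chr13:12800080-12800329 (minus strand) for Prl2c3 and chr13:13182466-13182715 (plus strand) for Prl2c5. Of the Prl2c genes, only Prl2c3 and Prl2c5 were matched in the RefSeq promoter table. Capitals mark matches, searched on either strand, to TGANTCA, a loose form of the AP-1 letters in which N is any base. They also mark matches to the letters of a GATA factor site, which are AGATAA and do not overlap the former here.
Prl2c3 promoter: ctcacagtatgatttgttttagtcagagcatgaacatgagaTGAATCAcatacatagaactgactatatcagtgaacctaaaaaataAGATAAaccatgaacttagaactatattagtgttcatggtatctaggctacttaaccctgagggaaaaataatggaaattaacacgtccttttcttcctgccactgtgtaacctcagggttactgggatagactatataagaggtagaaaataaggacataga
Prl2c5 promoter: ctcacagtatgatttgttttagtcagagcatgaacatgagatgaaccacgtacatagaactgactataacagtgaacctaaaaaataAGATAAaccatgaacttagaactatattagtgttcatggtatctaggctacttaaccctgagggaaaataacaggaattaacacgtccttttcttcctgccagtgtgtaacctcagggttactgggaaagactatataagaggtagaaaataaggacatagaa
The Prl2c3 promoter held 1 match to TGANTCA, starting at -209 from the gene start, and that of Prl2c5 held 0. The match was TGAATCA, with A as its middle base. Neither promoter held the stricter AP-1 letters with C or G there, TGACTCA or TGAGTCA. The difference between the promoters thus rests on the free middle letter. Both held 1 GATA match, at -163. Among all 32851 promoters of 300 bases in the table, 7.81% held the loose letters TGANTCA and 11.2% the GATA letters. Over those 300 bases the promoters of Prl2c3 and Prl2c5 were 95.3% identical. A match describes letters only and is no measure of binding.

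The cells were muscle by their markers. The myotube genes Acta1, Myh3, Mylpf, Tnnt3, Myog, and Ckm were detected in 24 of 24 libraries, with a median of 3809 counts per M (CPM, scaled by the trimmed mean of M values, TMM) for Acta1. The placental markers Ctsq, Prl3b1, and Gcm1 were at 0 in 24 of 24 libraries and Hand1 in 21, so the defining genes of the trophoblast source of proliferin were at or near 0. Of 22 other prolactin family genes in the tables, 10 had any count, the highest value in a library was 3.00 counts, and 0 passed the filter on low counts. Tissue extracts do not separate fewer expressing cells from less RNA per cell.

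A feature of the libraries moved with the groups. Small RNAs without a poly(A) tail, such as Rn7sk and Rpph1, should be scarce after poly(A) selection. The 22 listed small RNAs found in the table summed to 98.4 to 169 counts per M of the library total in control, 15.5 to 70.2 at 1 Hz, 18.3 to 51.1 at 4 Hz, and 38.4 to 274 at 10 Hz. Control did not overlap 1 or 4 Hz, so this feature of the libraries and those 2 frequencies cannot be told apart. According to the labels, samples of low input were depleted of ribosomal RNA in place of the selection, and which samples these were is not given in the sources used here.

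Per unit length, Prl2c3 was the more abundant copy in control and at 10 Hz, and the copies were near each other at 1 and 4 Hz. In transcripts per M (TPM), a level per transcript length, Prl2c3 stood at 279 ± 116 and Prl2c2 at 109 ± 46.1 in control (SD, n = 6, as for all means here). At 1 Hz the levels were 187 ± 32.9 TPM for Prl2c3 and 178 ± 37.5 TPM for Prl2c2. At 4 Hz they were 153 ± 37.4 and 174 ± 24.2 TPM, and at 10 Hz 474 ± 300 and 231 ± 78.1 TPM. Prl2c3 ranked among the top 2.10% of genes with a mean above 0 in control and the top 1.15% at 10 Hz, and Prl2c2 among the top 5.88% and 2.30%. Prl2c5 was a minor copy at 3.1 TPM in control and 6.50 TPM at 10 Hz. Prl2c1 was at 0 in 23 libraries, which allows up to 0.740 CPM in the shallowest, and had 2.01 counts in 10 Hz replicate 3.

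By Salmon's estimated split of shared reads, Prl2c2 was higher in stimulated than in unstimulated tissue at each frequency. In control replicates 1 to 6 it stood at 36.0, 20.4, 60.3, 37.5, 60.8, and 68.9 CPM, a mean of 47.3 ± 18.8 CPM. At 1 Hz the replicates stood at 57.7, 105, 94.0, 81.2, 71.7, and 100 CPM, a mean of 85.0 ± 18.2 CPM. At 4 Hz they stood at 94.2, 82.9, 84.1, 91.4, 101, and 70.8 CPM, a mean of 87.4 ± 10.5 CPM. All 6 libraries of the 4 Hz group lay above every control library, and at 1 Hz 5 of 6 did, with replicate 1 inside the control range. At 10 Hz the replicates stood at 79.3, 88.6, 170, 75.1, 126, and 117 CPM, a mean of 109 ± 36.0 CPM, with all 6 above every control library and 3 of 6 above every 4 Hz library. The share of all genes that separated from control in this way was not counted. In the fit described below, 20.1% of genes were called changed at 4 Hz and 1.86% at 10 Hz over control.

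**Figure D1:**
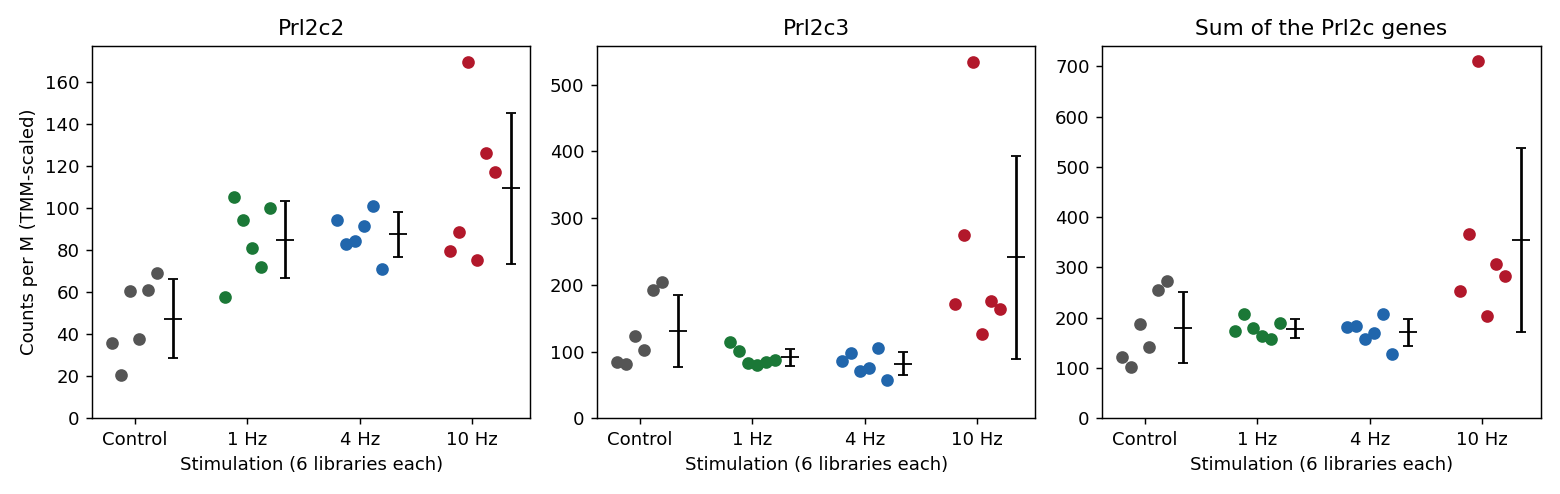
TMM-scaled CPM of Prl2c2, Prl2c3, and the sum of the Prl2c genes in 24 libraries, 6 per condition, with points in the order of the replicate numbers; bars show the mean ± SD. Prl2c2 means were 47.3, 85.0, 87.4, and 109 CPM from control to 10 Hz, whereas Prl2c3 was lower at 1 and 4 Hz (91.3 and 82.0 CPM) than in control and at 10 Hz (131 and 241 CPM), and 10 Hz replicate 3 stood highest in all panels.

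For 1 and 4 Hz the comparison with control was tested with edgeR's quasi-likelihood test over all 13318 genes that passed the filter, although the control libraries were also part of the comparison for which Prl2c2 was picked. A gene was called changed where its Benjamini-Hochberg (BH) adjusted p was below 0.05 and its log2(fold change) was larger than 0.5 in size. Prl2c2 was upregulated at 1 Hz, with a log2(fold change) that reached 0.85 ± 0.22 (SE, edgeR adjusted p = 0.00386), in a comparison where 18.3% of genes tested were called, 9.34% higher and 8.99% lower. At 4 Hz it was upregulated by 0.89 ± 0.22 (SE, edgeR adjusted p = 0.0022), where 20.1% of genes were called and 10.5% were called higher. Both calls rest on the estimated split of reads between Prl2c2 and Prl2c3. The sum of the Prl2c genes stood at 0.00 and -0.06 over control at 1 and 4 Hz. How far shared reads moved between the copies was not tested. Prl2c2 did not separate the lower frequencies, with a log2(fold change) of 0.04 for 4 Hz over 1 Hz (95% interval -0.41 to 0.48, edgeR adjusted p = 0.936), a comparison in which 3.00% of genes were called. The rise at 10 Hz over control, for which the gene was picked, was 1.21 ± 0.22 (SE) on the log2 scale, where 1.86% of all genes were called, 1.24% higher and 0.623% lower. When the log2 share of the small RNAs entered the fit as a covariate, Prl2c2 was higher by 0.60 at 1 Hz (edgeR adjusted p = 0.589) and 0.64 at 4 Hz (edgeR adjusted p = 0.364), and neither call remained.

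By the same estimated split, Prl2c3 had lower means at 1 and 4 Hz than in control, the opposite direction to Prl2c2. Control replicates 1 to 6 stood at 84.8, 81.2, 123, 102, 192, and 204 CPM, a mean of 131 ± 53.9 CPM. The 1 Hz replicates stood at 114, 101, 83.0, 79.6, 84.0, and 86.9 CPM, a mean of 91.3 ± 13.1 CPM. The 4 Hz replicates stood at 85.7, 97.8, 71.4, 75.4, 105, and 56.6 CPM, a mean of 82.0 ± 17.9 CPM. Both frequencies overlapped the control group, in which replicates 5 and 6 were the high libraries, and 3 of 6 libraries at 4 Hz lay below every control library. The 10 Hz replicates stood at 171, 275, 534, 127, 176, and 164 CPM, a mean of 241 ± 152 CPM. Here all 6 lay above every 1 Hz and every 4 Hz library, in comparisons where 17.9% and 11.0% of genes were called, but only 2 of 6 lay above every control library.

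At 1 Hz Prl2c3 stood at a log2(fold change) of -0.52 ± 0.27 against control (SE), which did not pass the test (edgeR adjusted p = 0.137, 95% interval -1.09 to 0.04). At 4 Hz the value was -0.67 ± 0.27 (SE), just past the threshold (edgeR adjusted p = 0.0495), and 9.61% of genes were called lower there. That call was lost in 7 of 12 fits that each left out 1 library (control replicates 3, 5, and 6, and 4 Hz replicates 1, 3, 4, and 6), in which the value lay between -0.69 and -0.50 (edgeR adjusted p = 0.0640 to 0.149). It was also lost with the replicate number as a block, at -0.66 (edgeR adjusted p = 0.0562), and with the small RNA covariate, at -0.08 (edgeR adjusted p = 0.951). The 4 and 1 Hz groups were not separated, with a difference of -0.15 (95% interval -0.72 to 0.41, edgeR adjusted p = 0.770). At 10 Hz Prl2c3 was higher by 0.88 ± 0.27 (SE) on the log2 scale than in control, by 1.41 ± 0.27 than at 1 Hz, and by 1.56 ± 0.27 than at 4 Hz. Without 10 Hz replicate 3 the difference from control was 0.48.

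**Figure D2:**
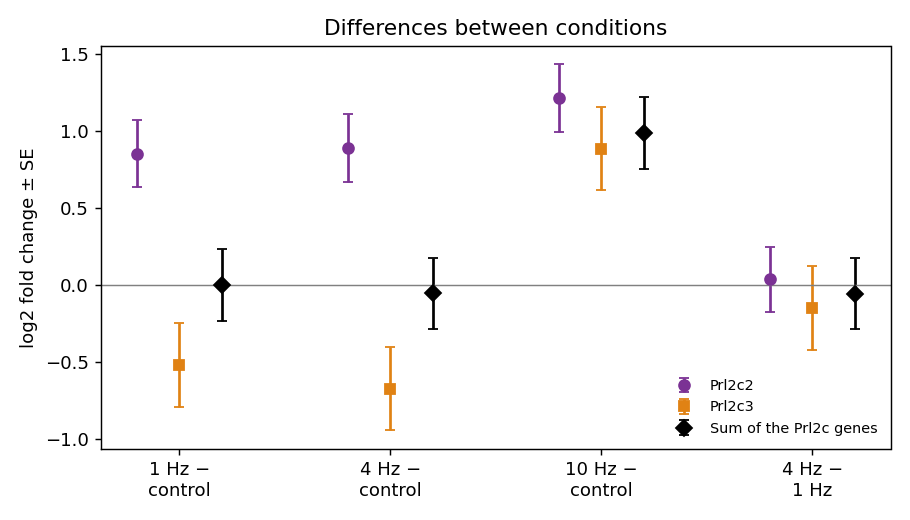
log2(fold change) ± SE of Prl2c2, Prl2c3, and the sum of the Prl2c genes from the edgeR fits, for each frequency over control and for 4 Hz over 1 Hz. At 1 and 4 Hz Prl2c2 stood at 0.85 and 0.89, Prl2c3 at -0.52 and -0.67, and the sum at 0.00 and -0.06, whereas at 10 Hz all 3 stood above 0, at 1.21, 0.88, and 0.99.

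The sum of the Prl2c genes had similar means from control to 4 Hz and was higher at 10 Hz. It averaged 180 ± 70.9 CPM in control, 178 ± 18.1 CPM at 1 Hz, 171 ± 26.7 CPM at 4 Hz, and 354 ± 183 CPM at 10 Hz. Control libraries ranged from 102 to 274 CPM, 1 Hz libraries from 157 to 207 CPM, 4 Hz libraries from 129 to 207 CPM, and 10 Hz libraries from 203 to 710 CPM. The lower groups lay within the control range, and 4 of 6 libraries at 10 Hz lay above every control library. In a fit of the whole table with the Prl2c genes as 1 row, the sum at 1 Hz differed from control by 0.00 ± 0.23 (SE, 95% interval -0.49 to 0.49, edgeR adjusted p = 0.999) on the log2 scale. At 4 Hz it differed by -0.06 ± 0.23 (SE, 95% interval -0.54 to 0.43, edgeR adjusted p = 0.870), and 4 Hz differed from 1 Hz by -0.06 (95% interval -0.54 to 0.43, edgeR adjusted p = 0.906). Changes within about 0.5 on the log2 scale either way were thus not detectable for the sum. At 10 Hz it was higher by 0.99 ± 0.23 (SE) than in control, by 0.99 than at 1 Hz, and by 1.04 than at 4 Hz. Without 10 Hz replicate 3 these differences were 0.65, 0.66, and 0.72.

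The split between the copies differed between control and the 2 lower frequencies. Prl2c3 held 69.3%, 79.4%, 66.0%, 72.3%, 75.6%, and 74.4% of all Prl2c counts in control replicates 1 to 6, a mean of 72.8% ± 4.74. At 1 Hz it held 65.7%, 48.6%, 46.2%, 48.6%, 53.4%, and 46.0%, a mean of 51.4% ± 7.50. At 4 Hz it held 47.2%, 53.5%, 45.4%, 44.3%, 50.7%, and 44.0%, a mean of 47.5% ± 3.81. Neither frequency overlapped control, although 1 Hz replicate 1 (65.7%, 95% Clopper-Pearson interval 62.6% to 68.9%, counting error only) lay next to control replicate 3 (66.0%, 63.4% to 68.6%). The share was lower than in control by 21.4 percentage points at 1 Hz and by 25.3 points at 4 Hz (2-sided exact permutation p = 0.00216 for each, the smallest that 6 against 6 libraries can give, BH adjusted p = 0.00325 over 3 comparisons). Both tests used the control libraries, which were also part of the comparison for which Prl2c2 was picked. The small RNAs did not overlap between control and these 2 frequencies either, so the share difference cannot be told apart from that feature. The 3.90 points between 4 and 1 Hz did not pass (exact permutation p = 0.316, BH adjusted p = 0.316).

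**Figure D3:**
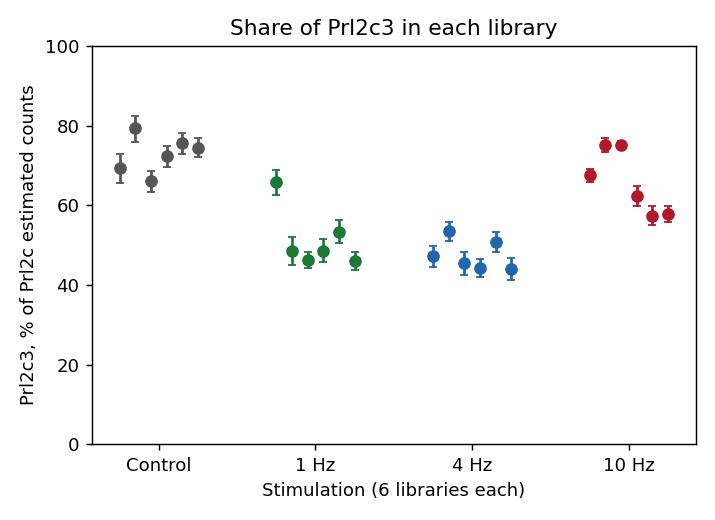
Prl2c3 as a percentage of all Prl2c estimated counts in each of 24 libraries, 6 per condition in the order of the replicate numbers; bars are 95% Clopper-Pearson intervals, which cover counting error only. Control libraries lay between 66.0% and 79.4%, 4 Hz libraries between 44.0% and 53.5%, 1 Hz libraries between 46.0% and 65.7%, and 10 Hz libraries between 57.4% and 75.2%.

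At 10 Hz the share spread over a wide range, with 67.6%, 75.2%, 75.2%, 62.3%, 57.4%, and 57.8% in replicates 1 to 6, a mean of 65.9% ± 8.08. Replicates 1 to 3 lay inside the control range and replicates 4 to 6 below it. The small RNAs summed to 178, 274, and 112 counts per M in 10 Hz replicates 1 to 3 and to 81.3, 67.1, and 38.4 in replicates 4 to 6. In the 1 Hz group, replicate 1 had both the highest share of Prl2c3 and the most small RNA, at 70.2 counts per M against 15.5 to 36.2 in the others. The other groups did not show this. In the 4 Hz group, replicate 3 had the most small RNA, at 51.1 counts per M, with a share of 45.4%. Control replicate 2 had the least small RNA of its group, at 98.4 counts per M, with the highest share, 79.4%. The part of the small RNA feature in the split between the copies was not tested. The effective length that Salmon used for Prl2c3, relative to that for Prl2c2, was read from the ratio of counts to TPM and ranged from 0.983 to 1.19 in control, 0.999 to 1.10 at 1 Hz, 1.03 to 1.14 at 4 Hz, and 1.01 to 1.14 at 10 Hz.

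**Figure D4:**
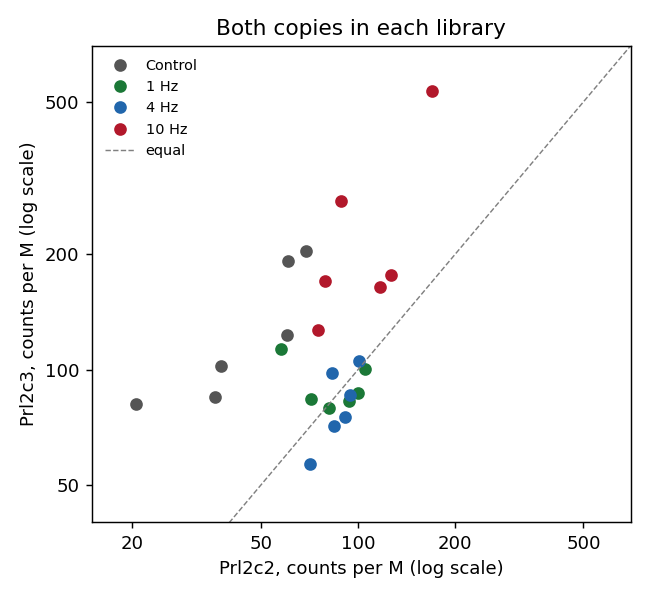
Prl2c2 (horizontal) against Prl2c3 (vertical) in TMM-scaled CPM on log scales, 1 point for each of 24 libraries colored by condition; the dashed line marks equal values. Control and 10 Hz libraries lie above the line, at Prl2c3 shares of 57.4% or more, and 1 and 4 Hz libraries lie near it except 1 Hz replicate 1, at 65.7%.

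Within 3 of the 4 groups, libraries with more Prl2c2 tended to have more Prl2c3. As a description without a test, the correlation of their log2 CPM over 24 libraries was 0.38 (Pearson r; Spearman rho 0.18), and that of deviations from the group means was 0.65 (rho 0.60). Within groups of 6, r was 0.86 in control, -0.40 at 1 Hz, 0.78 at 4 Hz, and 0.70 at 10 Hz. Reads divided between copies by a model can move both values in opposite directions, and the libraries share their depth and preparation.

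Prl2c5, which has more sequence of its own, was low in all groups. Its means were 1.57 ± 0.88 CPM in control, 2.04 ± 0.59 CPM at 1 Hz, 1.96 ± 0.72 CPM at 4 Hz, and 3.41 ± 1.85 CPM at 10 Hz, from 4.02 to 62.7 counts per library. Neither 1 Hz (log2(fold change) 0.40, edgeR adjusted p = 0.411) nor 4 Hz (0.29, edgeR adjusted p = 0.548) differed from control beyond the spread. At 10 Hz it was 1.11 ± 0.35 (SE) above control on the log2 scale, with 10 Hz replicate 3 again highest at 6.54 CPM.

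Of the 9293 genes with a mean of at least 10 CPM, those most like Prl2c2 in log2 CPM over the 24 libraries were Mat2a, a methionine adenosyltransferase gene (r = 0.88), and Rbm3, a cold-inducible RNA-binding protein gene (r = 0.83), followed by Sdc4, Mylk4, and Trmt10a at 0.82 each. As a description, since it was chosen for its likeness, Mat2a stood at log2(fold changes) of 0.47, 0.69, and 0.60 over control at 1, 4, and 10 Hz. For Prl2c3 they were Serpinb9b, a serine protease inhibitor gene (r = 0.92), AU018091 (0.88), and Ddx17, Akap12, and Pdpn (0.86 each). Serpinb9b, chosen in the same way, stood at -0.58, -0.67, and 0.27. No gene stood in both lists of 5. In deviations from the group means, the genes most like Prl2c2 were Adamts6, Inhba, Sox11, Sgms2, and Errfi1 (r = 0.81 to 0.83), and those most like Prl2c3 were Nfkbiz, Eps8, Hmga2, Wdr36, and Efnb2 (0.86 to 0.89). These correlations describe 24 libraries that share depth and preparation.

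Few genes around Prl2c2 were expressed. Of 42 genes annotated within 500 kb of Prl2c2, 6 were tested, among them Prl2c3 and Prl2c5. Nid1, for the basement membrane protein nidogen, was upregulated by 0.73 at 1 Hz (edgeR adjusted p = 1.68e-05), and stood 0.30 above control at 4 Hz and 0.12 at 10 Hz, both under the fold limit. Gpr137b, the lncRNA ENSMUSG00000121485, and the pseudogene Gm2423 had absolute log2(fold changes) below 0.5 at each frequency over control. At 1 Hz Gpr137b (0.48, edgeR adjusted p = 5.06e-05) and the lncRNA (0.46, edgeR adjusted p = 0.000197) missed only the fold limit. So did Gm2423 at 4 Hz (-0.43, edgeR adjusted p = 0.0429).

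The genes below belong to lists compiled from general knowledge, with earlier results of these data known. Whether they act on proliferin, or proliferin on them, was not tested. Their counts of calls at 1 and 4 Hz carry the limit given above for the small RNAs: with that share as a covariate, 1 gene of 13318 was called at 1 Hz over control and 249 at 4 Hz. Among receptors and carriers, 4 of 8 were tested and 0 were called at any frequency over control. Igf2r, the proliferin receptor gene, averaged 101 ± 10.0 CPM in control and 142 ± 16.9 CPM at 1 Hz, and its log2(fold change), 0.49 ± 0.10 (SE, edgeR adjusted p = 0.000374), fell just under the fold limit. At 4 Hz it stood at 0.10 (edgeR adjusted p = 0.444) and at 10 Hz at -0.11 (edgeR adjusted p = 0.579).

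Among growth factors and their receptors, 10 of 25 tested were called higher and 0 lower at 1 Hz, with a median log2(fold change) of 0.45 against -0.01 for all genes tested, of which 9.34% were called higher and 8.99% lower. At 4 Hz 6 were called higher and 1 lower (median 0.25), against 10.5% and 9.61% of all genes, and at 10 Hz 0 were called (median -0.08). Receptor genes led the rise, with Pdgfrb, a platelet-derived growth factor receptor, at 1.38 and 1.81 for 1 and 4 Hz (edgeR adjusted p = 0.00324 and 0.000193) and Egfr, the epidermal growth factor receptor, at 1.26 and 1.27 (edgeR adjusted p = 6.25e-05 and 3.24e-05). Tgfa, an Egfr ligand, was downregulated by 0.77 at 4 Hz (edgeR adjusted p = 0.0435). Its level was low, and the control range (1.16 to 3.78 CPM) overlapped that at 4 Hz (1.09 to 1.31 CPM). At 10 Hz Pdgfrb was at 0.37 and Egfr at -0.25, and neither passed the test.

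Genes of AP-1 and of steroid signaling moved in both directions. Of the 15 tested AP-1 and steroid receptor genes, 5 were called higher and 1 lower at 1 Hz, 2 higher and 4 lower at 4 Hz, and 0 higher and 2 lower at 10 Hz. Of all genes, 18.3%, 20.1%, and 1.86% were called either way in these comparisons. Fos was downregulated at each frequency, by 1.26 ± 0.25 at 1 Hz (SE, edgeR adjusted p = 0.000473), 2.26 ± 0.27 at 4 Hz (edgeR adjusted p = 7.49e-07), and 1.01 ± 0.25 at 10 Hz (edgeR adjusted p = 0.0174), from 28.9 ± 5.72 CPM in control. Jun fell by 0.88 at 4 Hz (edgeR adjusted p = 6.31e-07) and stood at -0.45 and -0.50 at 1 and 10 Hz, under the fold limit. Fosb rose by 0.83 at 1 Hz (edgeR adjusted p = 0.00216) and fell by 0.83 at 4 Hz (edgeR adjusted p = 0.00272). Junb was upregulated by 0.94 at 4 Hz (edgeR adjusted p = 3.53e-05), and Fosl1 passed at none of the frequencies, at 0.15, -0.26, and 0.06. Nr3c1 stood at 0.48 at 1 Hz (edgeR adjusted p = 0.0071), 0.16 at 4 Hz, and -0.37 at 10 Hz, under the fold limit. Sgk1, a glucocorticoid-induced kinase gene, was 0.66 higher at 1 Hz (edgeR adjusted p = 0.000104) and 0.69 lower at 10 Hz (edgeR adjusted p = 0.000896). At 4 Hz Sgk1 was also lower, at 184 ± 11.8 CPM (167 to 197) against 277 ± 17.9 CPM (248 to 299) in control.

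**Figure D5:**
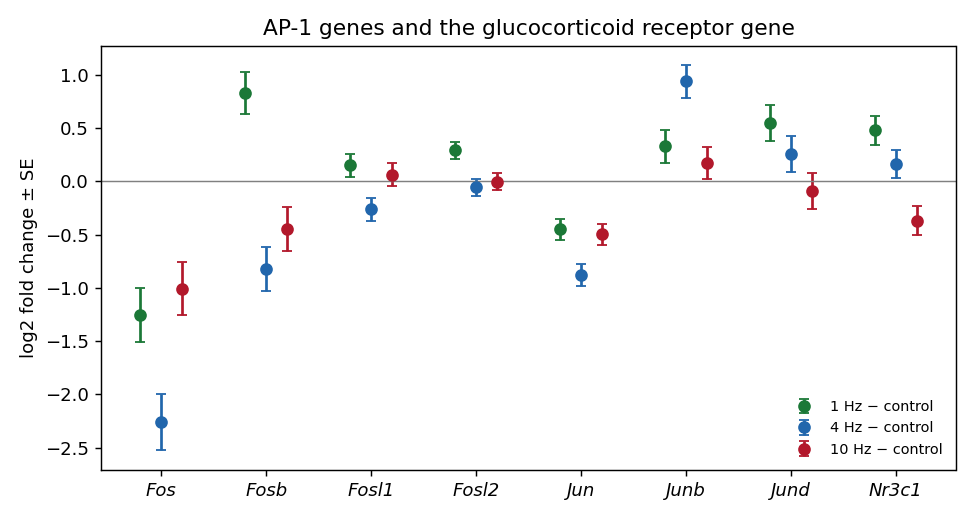
log2(fold change) ± SE over control at 1, 4, and 10 Hz for the genes of the AP-1 subunits and for Nr3c1, the glucocorticoid receptor gene (edgeR fit, 6 libraries per condition). Fos lay below 0 at each frequency, at -1.26, -2.26, and -1.01, and Junb was highest at 4 Hz, at 0.94.

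The trophoblast regulators of the gene were weakly expressed. Of 23 trophoblast factors and markers, 2 were tested. Gata3 averaged 15.9 ± 2.05 CPM in control and was downregulated by 0.56 at 4 Hz (edgeR adjusted p = 0.00427), and it stood at -0.04 and -0.31 at 1 and 10 Hz (edgeR adjusted p = 0.852 and 0.231). Gata2 passed at none of the frequencies, at -0.31, -0.28, and -0.04.

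Proliferin has been linked to the block of muscle differentiation, and most myogenic genes were called higher in the tissues at 1 and 4 Hz, the frequencies at which the small RNA share also differed from control. Of 23 tested, 15 were called higher and 0 lower at 1 Hz, 16 higher and 1 lower at 4 Hz, and 6 higher and 0 lower at 10 Hz, with median log2(fold changes) of 0.59, 0.85, and 0.32 against -0.01 for all genes in each comparison. Of all genes, 9.34%, 10.5%, and 1.24% were called higher at 1, 4, and 10 Hz. Myod1, the master regulator of the lineage, was upregulated by 1.17 at 1 Hz (edgeR adjusted p = 0.000456) and 1.51 at 4 Hz (edgeR adjusted p = 2.15e-05), and its 0.77 at 10 Hz did not pass (edgeR adjusted p = 0.0548). Myog, which drives fusion-stage differentiation, stood at 0.47 at 1 Hz, under the fold limit, and was upregulated by 0.85 at 4 Hz (edgeR adjusted p = 7.73e-05) and 0.62 at 10 Hz (edgeR adjusted p = 0.0142). Myh3, the embryonic myosin heavy chain gene, was upregulated at each frequency, by 1.23, 1.26, and 0.82 (edgeR adjusted p = 3.98e-05, 1.8e-05, and 0.0123). Myf5, an early regulator, was downregulated by 0.61 at 4 Hz (edgeR adjusted p = 0.00879).

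Markers of undifferentiated myoblasts and fibroblasts, the cells in which proliferin was described outside the placenta, were counted as well. Of 14 tested, 2 were called higher and 0 lower at 1 Hz, 1 higher and 2 lower at 4 Hz, and 0 higher and 1 lower at 10 Hz, against 18.3%, 20.1%, and 1.86% of all genes called either way. Their summed level ranged from 808 to 1208 CPM in control and from 883 to 1040 CPM at 10 Hz. Pax7, a satellite cell gene, was upregulated by 0.99 and 1.04 at 1 and 4 Hz (edgeR adjusted p = 0.0349 and 0.023), and Pdgfra stood at 0.45, 0.01, and -0.32, under the fold limit at each frequency. Pax7 was low, at 1.86 ± 1.24 CPM in control (0.378 to 3.77). Its ranges at 1 Hz (2.44 to 5.08 CPM) and 4 Hz (2.03 to 6.02 CPM) overlapped control. Of 5 fibroblast markers, Col3a1, Dcn, and Pdgfra were detected in 24 of 24 libraries, with medians of 318, 29.7, and 12.2 CPM, and Lum and Tcf21 were at 0 in 18 and 23 of 24 libraries. Their part in the Prl2c values was not tested.

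The cell cycle genes, read because proliferin was named for dividing cells, were split. Of 22 tested, 0 were called higher and 3 lower at 1 Hz (Mcm5, Ccne1, and Mcm3), 4 higher and 3 lower at 4 Hz, and 0 at 10 Hz, against 18.3%, 20.1%, and 1.86% of all genes called either way. Mki67, a proliferation marker, was upregulated by 1.28 at 4 Hz (edgeR adjusted p = 0.028) and stood at 0.71 and -0.11 at 1 and 10 Hz, neither past the test. Its level was low, at 1.00 ± 0.50 CPM in control (0.145 to 1.67) and 2.33 ± 1.98 CPM at 4 Hz (0.684 to 5.23), and these ranges overlapped. Among angiogenesis genes, 6 of 17 were called higher and 1 lower at 1 Hz, 5 higher and 3 lower at 4 Hz, and 0 higher and 1 lower at 10 Hz. Of all genes, 9.34% were called higher and 8.99% lower at 1 Hz, 10.5% and 9.61% at 4 Hz, and 1.24% and 0.623% at 10 Hz. Angpt1, a vessel-stabilizing ligand, led the rise with 1.36 and 1.73 at 1 and 4 Hz (edgeR adjusted p = 0.00582 and 0.000496). It was low as well, at 2.37 ± 2.19 CPM in control (0.697 to 6.70). Its ranges at 1 Hz (3.08 to 7.29 CPM) and 4 Hz (4.57 to 12.3 CPM) overlapped control. Ccn1, a secreted matrix protein gene, was downregulated at each frequency, by 1.07, 2.11, and 1.18 (edgeR adjusted p = 6.08e-05, 2.53e-08, and 0.000461).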

How the data were processed

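RNA from 24 C2C12 muscle tissues was sequenced by the authors as paired 50-base reads, and groups and replicate numbers came from the sample titles. The authors deposited a table of estimated counts for each gene from Salmon (expected counts without normalization) and a table of TPM, scaled within each library. The labels list STAR, Salmon, and GRCm39. The annotation release and the use of strand are not given in the sources used here. Both members and all gene lists were chosen with earlier results of these data known.

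Estimated counts were rounded, filtered with filterByExpr (13318 genes), scaled by TMM, and tested in 1 fit of 24 libraries with edgeR 4.0.16 (glmQLFit, glmQLFTest; limma 3.58.1, R 4.3.3), with BH adjustment over all genes tested. The fit was repeated with the Prl2c rows summed. An SE is the absolute log2 fold change over the root of F. Shares were compared with 2-sided exact permutation tests. Replicates were compared in 60 pairs within groups, and none agreed within sampling noise. Same-numbered libraries did not deviate together. Windows, exons, and coding differences were read from GENCODE M39 on GRCm39, and promoters from RefSeq.

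Alternatives were other scaling, no filter, DESeq2 1.42.0 without and with apeglm 1.24.0, limma on log2(TPM + 1) or log2(TPM + 0.1), the 12 libraries compared only, a replicate block, the small RNA share as a covariate, and each library left out. The fits were tested on simulated data. Genes named are the members, the called list genes with the largest log2 fold changes (up to 3 each way, of which some are given), fixed regulators and markers, the 5 genes most like each member, and tested neighbors. The precision is set by 4.09 to 15.2 M counts per library, and Clopper-Pearson intervals cover counting error only, whereas intervals of log2 fold changes come from the fit and include the spread between libraries.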

Additional observations from a re-analysis of the deposited data

Results flagged for a closer look

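The 10 Hz replicate 3 library stood far from the other 5 of its group by Dixon's test at the 95% level in 4 of 36 sets of 6 libraries examined. Chance flags about 1 in 20 such sets. It held Prl2c3 at 534 CPM against 275 CPM for the next library, and at 1054 TPM against 533 TPM. The sum of the Prl2c genes was 710 CPM against 366 CPM for the next, and 1420 TPM against 723 TPM. Its Prl2c2 level, 170 CPM against 126 CPM, and its Prl2c3 share, 75.2%, were not set apart by that test. These 4 values come from the same library and largely from the same counts.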

How the results depend on the processing

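The shares kept their direction and their side of the threshold under each alternative run for them. These were Prl2c2 and Prl2c3 only, shares of summed TPM, the replicate block, and each library left out. The small RNA share was not applied to the shares as a covariate. Prl2c2 over control at 1 and 4 Hz also kept its direction and its call, except with the small RNA covariate (0.60 and 0.64). That covariate, which does not overlap between control and the lower frequencies, also moved Prl2c3 to 0.0536 at 1 Hz and -0.0789 at 4 Hz, the sum at 4 Hz to 0.21, and the genes called to 1 at 1 Hz over control, 249 at 4 Hz over control, 251 at 10 over 1 Hz, and 0 at 10 over 4 Hz (edgeR, 1007 at an unadjusted p under 0.05; no other tool was run with it). Prl2c3 at 4 Hz lost its call with DESeq2 size factors (-0.67), the replicate block (-0.66), DESeq2 (-0.67), apeglm (-0.45), and limma without a filter (-0.80), and the cause was not tested. With only the 12 libraries compared, Prl2c3 at 1 Hz gained a call (-0.52, edgeR adjusted p = 0.0464), and 146 genes were called at 10 Hz. The sum at 1 Hz, near 0, changed sign with DESeq2 size factors (-0.0115), the 12 libraries (-0.0118), DESeq2 (-0.0136), apeglm (-0.00705), and total count scaling (-0.0815). Prl2c2 at 4 over 1 Hz changed sign with limma in its 3 settings (-0.0168 in each).

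Leaving out each library gave -0.77 to -0.50 for Prl2c3 at 4 Hz, -0.12 to 0.15 for the sum at 1 Hz, -0.18 to 0.0893 at 4 Hz, and -0.12 to 0.0196 at 4 over 1 Hz, -0.0503 to 0.10 for Prl2c2 at 4 over 1 Hz, and 147 to 301 genes at 10 Hz over control (248 in all; 147 without control replicate 2 and 157 without 10 Hz replicate 6). The replicate block changed no other call. Same-numbered libraries had correlations of their deviations above 0.1 in 0 to 3 of 6 pairs per comparison, so the numbers did not pair them. Depth limits Prl2c5 and Prl2c1, and read sharing limits the split between Prl2c2 and Prl2c3.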
